A study of Mus musculus with 6 samples.

Results

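The genes described here encode 3 families of splicing proteins, namely the SR proteins, the heterogeneous nuclear ribonucleoproteins (hnRNPs) and the Snrp proteins of the small nuclear ribonucleoproteins (snRNPs). They were taken from a table of 38926 mouse genes by symbol, as every symbol that begins with Srsf and a digit, with Hnrnp or with Snrp, leaving out 2 rows marked as pseudogenes by -ps. The rule found 43 genes, of which 11 are SR genes, 20 are hnRNP genes and 12 are snRNP genes. No measured value entered the rule.

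RNA was sequenced from LSK cells, bone marrow cells that lack lineage markers and carry Sca-1 and Kit, among which are the blood stem cells and multipotent progenitors. One group of 3 libraries came from C57BL/6 mice injected with haloperidol, a dopamine receptor blocker used as an antipsychotic, and the other group of 3 came from C57BL/6 mice injected with its solvent, DMSO. All mice were wild type, were 8 to 12 weeks old and received the injections on 3 consecutive days at a dose the labels do not give, and drug or solvent was also present while the cells from femur and tibia were being sorted. Whether replicates are separate mice is not in the labels, and a p-value here weighs only how far these libraries spread, which could be technical. Sort and sequencing days are not named either, so treatment and any such batch cannot be told apart. At least 8492756 to 8936497 reads per library were assigned to genes, and mitochondrial genes took between 0.809% and 1.18% of them. Kit averaged 81.0 ± 9.78 FPKM with haloperidol and 87.8 ± 7.38 FPKM with DMSO, and Ly6a, which encodes Sca-1, averaged 138 ± 10.5 and 136 ± 10.2 FPKM in the same order (mean ± SD, n = 3 each). FPKM are fragments scaled to gene length and sequencing depth. Markers of other cell types were measured beside them. Of the B cell markers, Cd79b averaged 22.8 ± 1.24 FPKM with haloperidol and 32.2 ± 1.12 FPKM with DMSO (SD, n = 3 each), Cd79a averaged 0.752 ± 0.216 and 2.22 ± 0.567 FPKM in the same order, and Ms4a1 stayed below 1 FPKM on average in both groups. Cd79b and Cd79a passed as lower in the limma test described below (log2 fold change -0.48 and -0.87, limma adjusted p = 0.00108 and 0.0070). For 4 T cell markers the sums lay between 1.44 and 1.97 FPKM with haloperidol and between 1.08 and 1.51 FPKM with DMSO, and Cd8a was at 0 in all libraries. For 4 granulocyte and monocyte markers the sums lay between 22.9 and 50.8 FPKM with haloperidol and between 20.4 and 28.0 FPKM with DMSO, and Elane, a neutrophil precursor gene, averaged 24.6 ± 13.5 FPKM with haloperidol, with a range of 9.90 to 36.5, and 12.7 ± 1.46 FPKM with DMSO. Red cell transcripts summed to between 2613 and 3431 FPKM with haloperidol and between 2150.2 and 2865 FPKM with DMSO. Their part in the results below was not tested.

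Splicing removes introns from pre-mRNA on the spliceosome, which is built from snRNPs. Each of the major ones except U6 carries a ring of Sm proteins, made from the Snrpb, Snrpd, Snrpe, Snrpf and Snrpg genes, around its small nuclear RNA. SR proteins bind exons through RNA recognition motifs and, as a rule, promote the use of nearby splice sites through their arginine- and serine-rich tails, while hnRNPs coat nascent RNA and often act against them. SR genes and many hnRNP genes also limit their own levels by splicing in poison exons, whose transcripts are degraded by nonsense-mediated decay. In human blood stem cells SRSF2, SF3B1 and U2AF1 are recurrent sites of mutation in myelodysplastic syndromes.

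Srsf5 had the largest change of the 41 genes tested, and it was the one change above 1.5-fold, a size that 5.05% of all tested genes reached while passing the test. Among the genes that passed the test, Srsf5 rose and Srsf10 fell in the SR class, 5 hnRNP genes rose and Hnrnpc fell, and 4 snRNP genes rose. Genes that averaged 1 FPKM or more over all libraries were tested with limma on log2(FPKM + 1), and p-values were adjusted with the Benjamini-Hochberg method over all 11436 genes tested, with 0.05 as the threshold. Of the 43 genes, 41 passed the filter, and 12 of these 41 (29.3%) passed the test. Of all genes tested, 24.5% passed. In the upward direction 10 members passed (24.4%), where 11.5% of all genes did, and in the downward direction 2 passed (4.88%), where 13.0% of all genes did. Haloperidol and DMSO libraries did not overlap in 14 members that were higher with haloperidol and 5 that were lower, and over all genes the shares were 21.0% and 22.1%. The median log2 fold change was 0.06 for the members and 0.00 for all tested genes. The members were also more abundant, with a median of 73.9 FPKM against 9.88 FPKM for all tested genes. These are whole-sample levels, in which fewer cells of a type and less RNA per cell cannot be told apart.

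**Figure D1:**
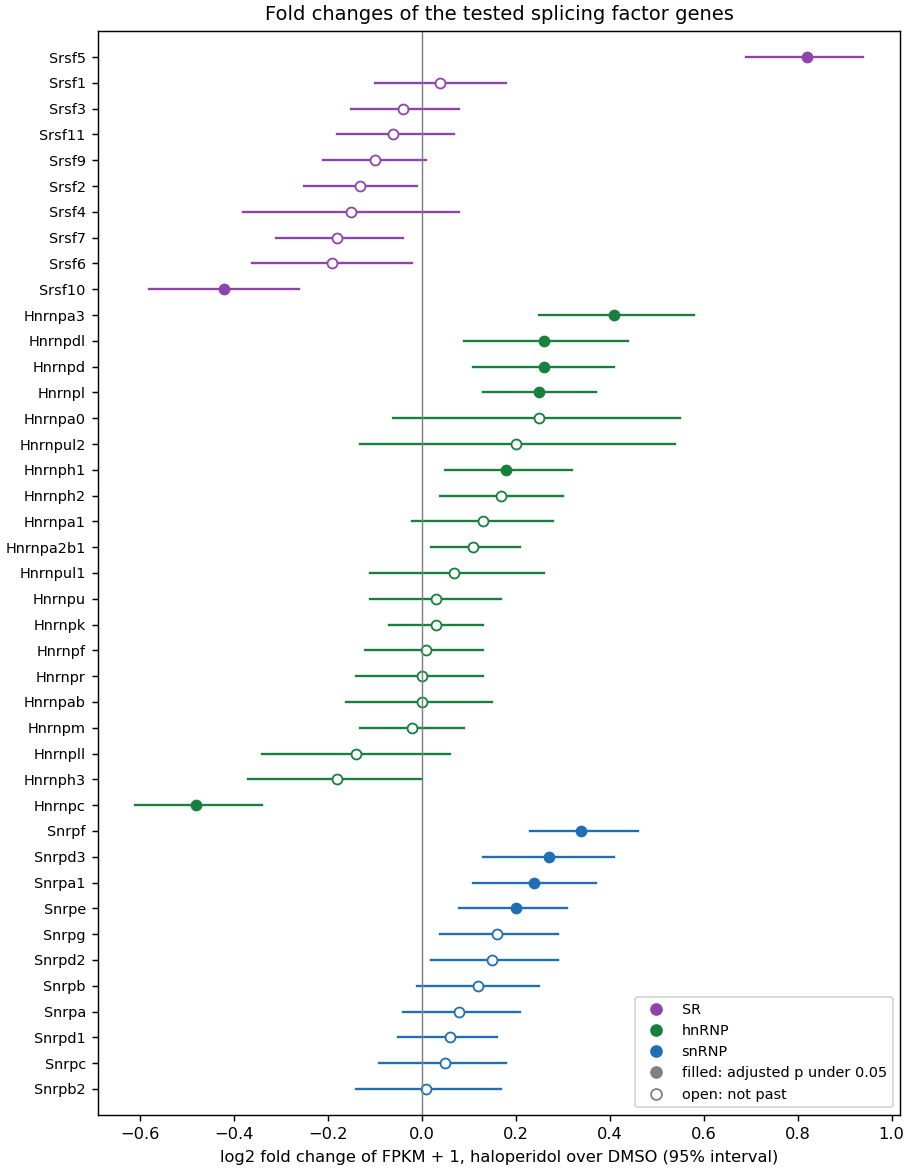
Log2 fold changes of FPKM + 1, haloperidol over DMSO, for the 41 tested splicing factor genes, ordered by size within each class. Points are estimates from 3 libraries a group, bars are 95% intervals, filled points passed the adjusted p of 0.05, and Srsf5 at 0.82 stands above the rest while all 11 snRNP genes lie at or above 0.01.

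The promoters of the genes with the smallest p in each class, Srsf5, Hnrnpc and Snrpf, are shown because these 3 carry the clearest changes. Each stretch is RefSeq sequence of build GRCm38.p6, runs from 250 to 51 bases before the annotated start, and is written 5′ to 3′ on the gene's strand. Capitals mark a GC box (GGGCGG), an ETS site (CCGGAAG) or a CCAAT box (CCAAT), searched on both strands.
Srsf5 promoter, chr12:80945249-80945448, plus strand: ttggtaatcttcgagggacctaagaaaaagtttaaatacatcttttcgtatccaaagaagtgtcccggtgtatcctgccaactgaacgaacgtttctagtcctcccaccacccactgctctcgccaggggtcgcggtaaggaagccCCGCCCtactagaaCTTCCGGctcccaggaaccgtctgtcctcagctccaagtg
Hnrnpc promoter, chr14:52104072-52104271, minus strand: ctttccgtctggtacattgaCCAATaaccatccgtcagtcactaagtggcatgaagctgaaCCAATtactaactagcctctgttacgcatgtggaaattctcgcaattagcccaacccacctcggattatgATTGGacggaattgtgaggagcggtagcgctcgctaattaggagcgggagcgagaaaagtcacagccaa
Snrpf promoter, chr10:93589709-93589908, minus strand: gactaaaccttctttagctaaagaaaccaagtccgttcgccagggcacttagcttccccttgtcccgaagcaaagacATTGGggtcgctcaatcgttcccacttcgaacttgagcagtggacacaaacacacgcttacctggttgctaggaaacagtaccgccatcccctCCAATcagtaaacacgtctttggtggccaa
The Srsf5 stretch held 1 GC box and 1 ETS site, which do not overlap. The Hnrnpc stretch held 3 CCAAT boxes, and the Snrpf stretch held 2. Of the 43 members, 39 had a promoter entry. A gene with several entries counts once, if any entry holds the motif, and shares of other genes are counted in the same way, over all 27025 genes with an entry and over those 8099 of the 11436 tested genes that had one. As many tested genes had no entry, the second share covers them only in part, and the comparison with tested genes is void as a check. A CCAAT box stood in 20 of the 39 members (51.3%), in 13 of 18 hnRNP genes, 4 of 10 snRNP genes and 3 of 11 SR genes, against 31.8% of all genes and 34.5% of tested genes. A GC box stood in 22 (56.4%), with 8 of 11 SR genes among them, against 27.2% of all genes and 49.2% of tested genes. ETS sites stood in 6 members (15.4%), 4.58% of all genes and 9.54% of tested genes. The cyclic AMP response element TGACGTCA was found in 1 member (2.56%), 0.955% of all genes and 1.56% of tested genes, the E-box CACGTG in 2 members (5.13%), 4.98% and 7.1%, and the palindromic glucocorticoid response element in 0 members, 0.374% and 0.235%. Over all 32851 entries of the same length, counted singly, 28.4% held a CCAAT box, 24.6% a GC box and 3.98% an ETS site. Such matches describe the letters in these windows and are not evidence of binding.

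Among the SR genes, Srsf5 rose, Srsf10 fell and 8 tested genes did not pass. Srsf5 encodes SRp40, a splicing activator first known as a gene of regenerating liver in the rat (chromosome 12, 80945504 to 80950507, plus strand). It had 160.5, 159 and 159 FPKM in haloperidol replicates 1, 2 and 3, against 96.1, 84.1 and 91.0 FPKM in DMSO replicates 1, 2 and 3. The groups were far apart, and the haloperidol libraries lay almost on one another. The means were 159.7 ± 0.684 FPKM with haloperidol and 90.4 ± 6.03 FPKM with DMSO (SD, n = 3 each), or 1.76-fold, with limma's log2 fold change at 0.82 (SE 0.06, adjusted p = 7.09e-05). Between 2914 and 5662 reads per library stood behind these values. Of the summed FPKM of the 11 SR genes, Srsf5 made up 16.7 ± 0.326% with haloperidol and 9.40 ± 0.630% with DMSO. That sum itself overlapped between the groups, at 944.6, 974.6 and 958.3 FPKM in the haloperidol libraries and 949.5, 934.5 and 1003 FPKM in the DMSO libraries.

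Srsf10, whose protein represses splicing when it loses its phosphates in heat shock or mitosis (chromosome 4, 135855747 to 135869908, plus strand), moved the other way. Its level was 17.1, 16.8 and 16.3 FPKM in the haloperidol libraries, against 20.9, 22.9 and 24.6 FPKM in the DMSO libraries. Every haloperidol library lay below every DMSO library. With means of 16.7 ± 0.423 FPKM under haloperidol and 22.8 ± 1.82 FPKM under DMSO (SD, n = 3 each), the log2 fold change was -0.42 (SE 0.07, limma adjusted p = 0.00371).

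The most abundant SR genes, Srsf7, Srsf2 and Srsf3, did not pass. Srsf7, whose protein also serves mRNA export, had 201, 204 and 191 FPKM with haloperidol, against 216, 215 and 244 FPKM with DMSO. The groups did not overlap, but the log2 fold change of -0.18 (SE 0.06, 95% interval -0.31 to -0.04) had a limma adjusted p of 0.0642. It passed in 3 of 18 other settings, among them limma voom on recovered reads (adjusted p = 0.0248). Srsf2, known as SC35 and a marker of nuclear speckles, had 178, 191 and 192 FPKM with haloperidol, against 198, 204 and 212 FPKM with DMSO. Here too the groups did not overlap and the call was missed (log2 fold change -0.13, SE 0.05, 95% interval -0.25 to -0.01, limma adjusted p = 0.0964). Srsf3 had 127, 119 and 127 FPKM with haloperidol and 128, 123 and 131 FPKM with DMSO, and these overlapped (log2 fold change -0.04, 95% interval -0.15 to 0.08). Of the remaining tested SR genes, Srsf6 (-0.19), Srsf4 (-0.15), Srsf9 (-0.10), Srsf11 (-0.06) and Srsf1 (0.04) had log2 fold changes that did not pass. The call for Srsf6 depended on the libraries and on the method, as its limma adjusted p over all libraries was 0.0921. It passed without haloperidol replicate 2 (adjusted p = 0.0237) and in limma voom on recovered reads from all libraries (adjusted p = 0.0343). In all, 8 of the 10 tested SR genes had a negative log2 fold change, and the class median was -0.11. Over all 11436 tested genes, 5667 were negative. Srsf12 was close to absent, with 4 to 12 reads per library and 0.143 to 0.406 FPKM with haloperidol against 0.247 to 0.439 FPKM with DMSO, and was not tested.

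**Figure D2:**
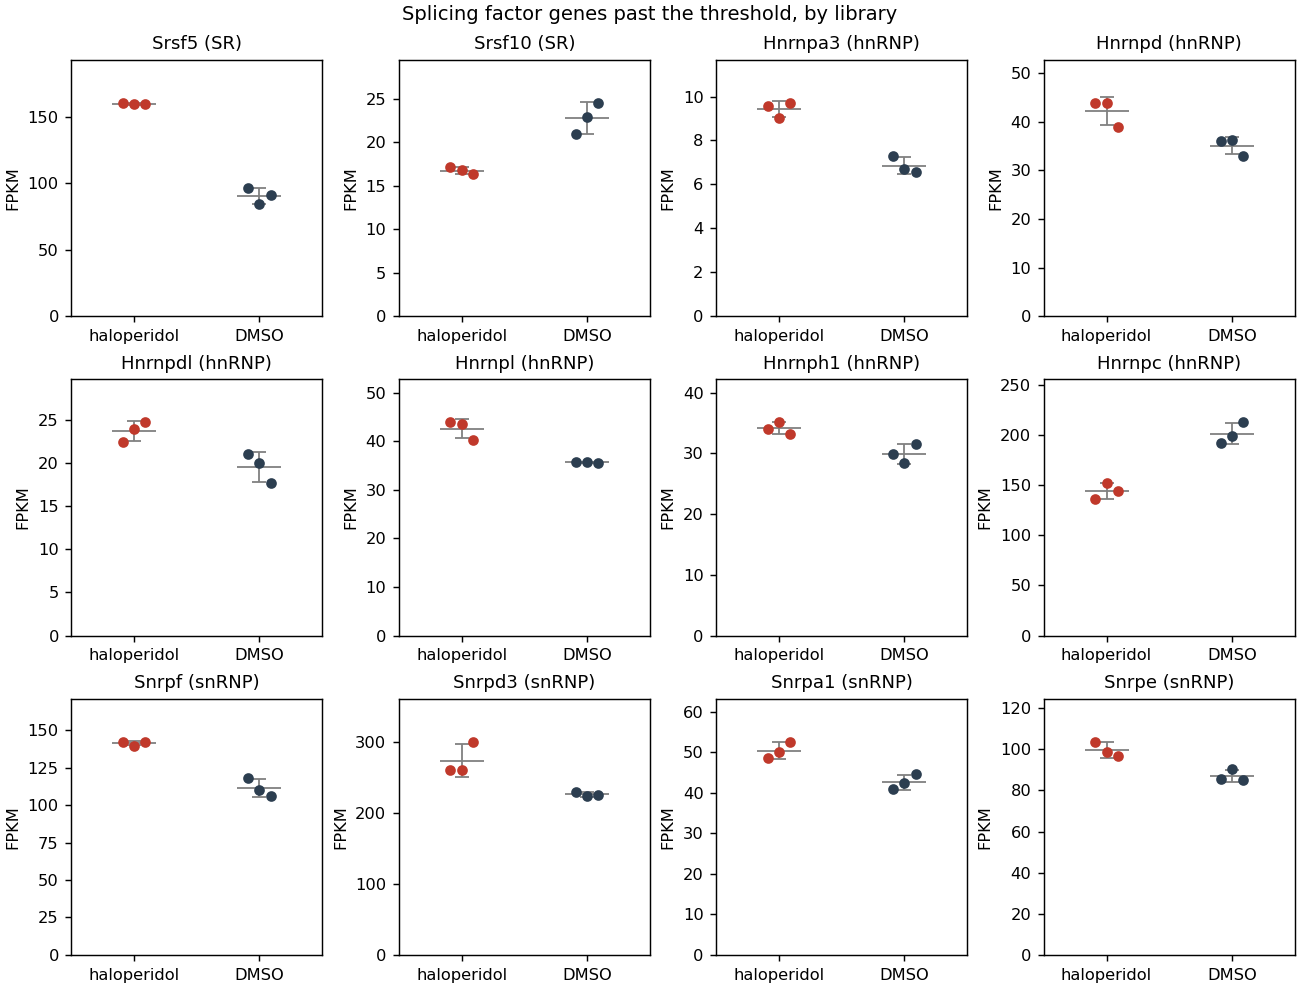
FPKM of the 12 splicing factor genes that passed the test, with 1 point per library for haloperidol (left) and DMSO (right), a grey line at the mean and bars of 1 SD (n = 3 each), on axes that start at 0. In every panel the 3 haloperidol libraries lie on one side of the 3 DMSO libraries, with the widest gap for Srsf5.

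Of the 20 hnRNP genes, all of which were tested, 5 rose, 1 fell and 14 did not pass. Thus 25.0% of the class rose and 5.0% fell, where 11.5% of all tested genes rose and 13.0% fell. With 1 library left out at a time, 3 to 4 hnRNP genes were higher. Hnrnpc encodes the C1 and C2 proteins, which bind runs of uridine in introns and, in human cells, keep U2AF off cryptic exons (chromosome 14, 52073377 to 52104028, minus strand). It had 136, 152 and 144 FPKM in the haloperidol libraries, against 192, 199 and 213 FPKM in the DMSO libraries. The highest haloperidol library was well below the lowest DMSO library. Its means of 144 ± 8.05 FPKM with haloperidol and 201 ± 10.6 FPKM with DMSO (SD, n = 3 each) gave a log2 fold change of -0.48 (SE 0.06, limma adjusted p = 0.00099), the largest fall of the 41 tested members.

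Hnrnpa3, a relative of Hnrnpa1 and Hnrnpa2b1 (chromosome 2, 75659261 to 75669407, plus strand), had the largest rise of the class. It was listed at 9.56, 9.03 and 9.72 FPKM with haloperidol, against 7.27, 6.72 and 6.55 FPKM with DMSO. All haloperidol libraries were the higher ones, and the log2 fold change was 0.41 (SE 0.07, limma adjusted p = 0.00501, n = 3 each). Hnrnpl binds CA-rich RNA and represses the variable exons of the phosphatase gene Ptprc in T cells (chromosome 7, 28808541 to 28822266, plus strand). It had 43.9, 43.6 and 40.3 FPKM with haloperidol, against 35.7, 35.8 and 35.6 FPKM with DMSO. The DMSO libraries were tightly grouped below all haloperidol libraries (log2 fold change 0.25, SE 0.05, limma adjusted p = 0.0115). Hnrnpll, which acts on the same Ptprc exons, had 10.2 ± 0.363 FPKM with haloperidol and 11.4 ± 1.37 FPKM with DMSO and did not pass (limma adjusted p = 0.281). As a share of the pair's summed FPKM, Hnrnpl stood at 80.6 ± 0.777% with haloperidol and 75.8 ± 2.22% with DMSO. The gene of Ptprc itself was at 42.3 ± 2.58 FPKM with haloperidol and 42.4 ± 2.75 FPKM with DMSO, and its exons were not analysed here.

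Hnrnpd encodes AUF1, which binds AU-rich elements and steers mRNA decay, and Hnrnpdl encodes its close relative. Their genes lie 54.6 kb apart on chromosome 5, both on the minus strand, and both rose. Hnrnpd had 43.9, 43.8 and 38.9 FPKM with haloperidol, against 35.9, 36.2 and 33.0 FPKM with DMSO. Hnrnpdl had 22.4, 23.9 and 24.7 FPKM with haloperidol, against 21.1, 20.0 and 17.7 FPKM with DMSO. Neither gene's groups overlapped, but for Hnrnpdl the nearest libraries were close. Both log2 fold changes were 0.26 (SE 0.07 for Hnrnpd and 0.08 for Hnrnpdl), with limma adjusted p of 0.0230 and 0.0361. The call for Hnrnpd ended without haloperidol replicate 1 (adjusted p = 0.0779), haloperidol replicate 2 (0.0754) or DMSO replicate 3 (0.0730). That for Hnrnpdl ended without haloperidol replicate 2 (adjusted p = 0.0922) or 3 (0.0971) or DMSO replicate 2 (0.0766) or 3 (0.0958), and with no filter on low values or no trend in the prior variance. With no trend the adjusted p was 0.0512 for Hnrnpd and 0.0626 for Hnrnpdl, and with no filter it was 0.0545 and 0.0803.

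Hnrnph1, whose protein binds runs of guanosine, was at the edge of the test. It had 34.0, 35.2 and 33.2 FPKM with haloperidol, against 29.8, 28.4 and 31.6 FPKM with DMSO. The groups did not overlap (log2 fold change 0.18, SE 0.06), and the limma adjusted p of 0.0489 rose past 0.05 in 12 of 18 other settings. These included leaving out haloperidol replicate 1 (adjusted p = 0.107), 2 (0.137) or 3 (0.0655) and DMSO replicate 1 (0.103) or 2 (0.161). Hnrnph2, its X-linked relative, had 70.7, 65.9 and 73.2 FPKM with haloperidol and 60.1, 61.7 and 64.8 FPKM with DMSO. It did not pass (log2 fold change 0.17, SE 0.06, limma adjusted p = 0.0651) but did in 4 other settings, one of which left out haloperidol replicate 2 (adjusted p = 0.0493).

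The most abundant hnRNP genes did not pass. Hnrnpa2b1, a reader of RNA with a role in mRNA transport, had 438, 438 and 448 FPKM with haloperidol, against 402, 406 and 414 FPKM with DMSO. Its groups did not overlap, at a small log2 fold change of 0.11 (SE 0.04, 95% interval 0.02 to 0.21, limma adjusted p = 0.0784), and it passed with upper quartile scaling (adjusted p = 0.0348) and in limma voom (0.0440). Hnrnpab had 356, 390.4 and 347 FPKM with haloperidol and 335, 373 and 386 FPKM with DMSO, with equal means (365 ± 22.8 and 365 ± 27.0 FPKM). Hnrnpk, a poly(C)-binding protein with roles in transcription as well, had 360.2, 361 and 359 FPKM with haloperidol and 340.3, 353 and 365 FPKM with DMSO, and these overlapped (log2 fold change 0.03, 95% interval -0.07 to 0.13). In the 9 members of the class not yet named, log2 fold changes that did not pass ran from -0.18 for Hnrnph3 to 0.25 for Hnrnpa0. They included Hnrnpa1 at 212 ± 12.9 FPKM with haloperidol and 194 ± 13.1 FPKM with DMSO (log2 fold change 0.13, 95% interval -0.02 to 0.28), Hnrnpu at 265 ± 12.2 and 260.2 ± 18.4 FPKM, and Hnrnpf at 244 ± 7.38 and 243 ± 14.2 FPKM, in the same order. Over all 11436 tested genes 5769 log2 fold changes were above 0, and in the hnRNP class 14 of 20 were, with a median of 0.09. Hnrnpul2 had the lowest level, at 3.07 ± 0.240 FPKM with haloperidol and 2.58 ± 0.720 FPKM with DMSO.

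**Figure D3:**
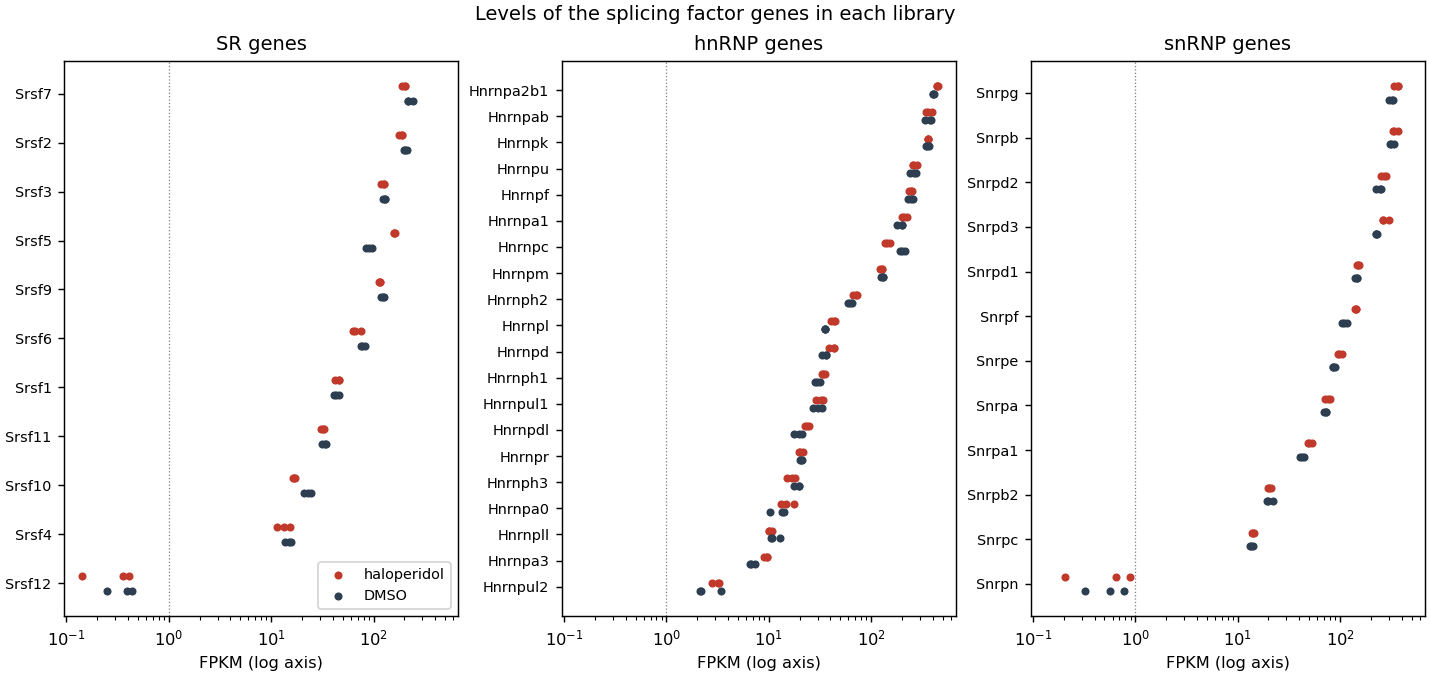
FPKM of all 43 splicing factor genes in each library on a log axis, 1 panel per class, ordered by mean level, with 3 red points for haloperidol above 3 dark points for DMSO in each row and a dotted line at 1 FPKM. Levels run from below 1 FPKM for Srsf12 and Snrpn to means of 441 FPKM with haloperidol and 408 FPKM with DMSO for Hnrnpa2b1, and for most genes the groups differ far less than the genes do.

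Of the 11 snRNP genes tested, 4 rose, 0 fell and 7 did not pass. Those that rose were 36.4% of the class, where 11.5% of all tested genes rose and 13.0% fell. With 1 library left out at a time, 2 to 4 snRNP genes were higher. Over all 11436 tested genes 5769 log2 fold changes were above 0, and in the snRNP class all 11 were, with a median of 0.15. That of Snrpb2, at 0.01, lay between -0.02 and 0.07 over the other settings. At an unadjusted p under 0.05, 6 were higher and 0 lower in limma, where 18.5% of all tested genes were higher and 19.1% lower. Limma voom on recovered reads called 4 higher and 0 lower, and over all tested genes it called 13.9% higher and 15.3% lower. Summed over the 12 genes, the level was 1761, 1747 and 1884 FPKM in the haloperidol libraries, against 1593, 1595 and 1596 FPKM in the DMSO libraries. These sums did not overlap, and haloperidol replicate 3 stood highest.

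Within the Sm ring, Snrpf, Snrpd3 and Snrpe rose among 7 genes. Snrpf (chromosome 10, 93583029 to 93589706, minus strand) had 142, 139.7 and 142 FPKM in the haloperidol libraries, against 118, 110.2 and 106 FPKM in the DMSO libraries. The haloperidol libraries lay close together and above all DMSO libraries. Its means were 141 ± 1.48 FPKM with haloperidol and 111 ± 6.21 FPKM with DMSO (SD, n = 3 each), so the log2 fold change was 0.34 (SE 0.05, limma adjusted p = 0.00248). Snrpd3 (chromosome 10, 75517551 to 75537381, plus strand) had 261, 261 and 301 FPKM with haloperidol, against 230.4, 224 and 225 FPKM with DMSO. Haloperidol replicate 3 was the high one, and the log2 fold change was 0.27 (SE 0.06, limma adjusted p = 0.0153). Without DMSO replicate 2 the call ended (adjusted p = 0.0557), as it did with no filter on low values (0.0516).

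Snrpe (chromosome 1, 133603871 to 133610291, minus strand) had 104, 98.7 and 96.6 FPKM with haloperidol, against 85.7, 90.3 and 84.9 FPKM with DMSO. Its groups did not overlap (log2 fold change 0.20, SE 0.05, limma adjusted p = 0.0238). The call ended without haloperidol replicate 1 (adjusted p = 0.0817) or 2 (0.0567), without DMSO replicate 1 (0.0674) or 3 (0.0703) and with no trend in the prior variance (0.0650). The most abundant genes of the ring, Snrpg, Snrpb and Snrpd2, did not pass. Snrpg had 365, 335 and 369 FPKM with haloperidol, against 327, 324 and 303 FPKM with DMSO, with no overlap (log2 fold change 0.16, SE 0.06, 95% interval 0.04 to 0.29, limma adjusted p = 0.0635). It passed in 3 of 18 other settings. These were a mean of at least 5 FPKM, upper quartile scaling and leaving out haloperidol replicate 2 (adjusted p = 0.0418). Snrpb, which encodes the SmB proteins, had 330.0, 338 and 369.7 FPKM with haloperidol and 313, 307 and 334 FPKM with DMSO, and these overlapped (log2 fold change 0.12, 95% interval -0.01 to 0.25). Snrpd2 had 253, 268 and 282 FPKM with haloperidol, against 224, 251 and 247 FPKM with DMSO, and the nearest libraries of the groups were close (log2 fold change 0.15, limma adjusted p = 0.0995). With upper quartile scaling Snrpd2 passed (limma adjusted p = 0.0461). Snrpd1, the remaining gene of the ring, had a log2 fold change of 0.06. The ring's 7 genes summed to 1606, 1586 and 1715 FPKM with haloperidol, against 1445, 1447 and 1445 FPKM with DMSO, and these did not overlap. The DMSO sums were close together, while the haloperidol sums were spread about as widely as the gap between the groups.

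Of the proteins particular to 1 snRNP, Snrpa1, a U2 snRNP protein that partners Snrpb2, rose (chromosome 7, 66059003 to 66074587, plus strand). It had 48.5, 50.1 and 52.7 FPKM with haloperidol, against 40.9, 42.3 and 44.6 FPKM with DMSO. No libraries overlapped (log2 fold change 0.24, SE 0.06, limma adjusted p = 0.0168), but the call ended without DMSO replicate 1 (adjusted p = 0.0532) or DMSO replicate 2 (0.0572). Snrpb2 was at 20.6 ± 0.693 FPKM with haloperidol and 20.4 ± 1.59 FPKM with DMSO. The U1 proteins did not pass either, with Snrpa at 76.1 ± 4.10 FPKM with haloperidol and 71.7 ± 1.63 FPKM with DMSO and Snrpc at 14.2 ± 0.413 and 13.7 ± 0.374 FPKM in the same order. Snrpn, the imprinted SmN gene of brain, had 4 to 17 reads per library and was not tested. It shares exon sequence with Snurf, which was listed at 0 in all libraries.

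Reads of these genes can be lost to, or taken from, near-identical copies. How the authors counted such reads is not stated in the labels used here. GENCODE vM21 pseudogene transcripts that matched a member's longest coding transcript at 95% identity or more over at least 200 bases were counted as copies. There were 66, of which 47 had a row in the table, and 18 of the 43 members had at least 1. Hnrnpa3 had the most, 27, of which 22 were listed. Those 22 summed to 37.1, 43.1 and 39.7 FPKM in the haloperidol libraries, against 29.7, 32.8 and 30.3 FPKM in the DMSO libraries. The copies were thus listed at a higher summed level than the gene itself, with 80.8% of the joint sum under haloperidol and 81.9% under DMSO. The joint sum of gene and copies was 49.4 ± 2.75 FPKM with haloperidol and 37.8 ± 1.51 FPKM with DMSO (SD, n = 3 each). FPKM of rows of different length add up only roughly. The level of Hnrnpa3 is therefore uncertain.

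Other copies were singled out after their values were seen. The copy of Hnrnpc, Gm12696, matched it at 97.6% identity over 589 bases. It had 18.4, 18.4 and 17.9 FPKM with haloperidol, against 22.9, 25.7 and 27.7 FPKM with DMSO, so that it too fell (log2 fold change -0.46, SE 0.07, limma adjusted p = 0.00329). It took 11.2% of the joint sum in both groups, so gene and copy were lower together. Reads of the gene listed under the copy were not told apart, so the falls cannot be taken as separate. The copy of Srsf5, Gm12966, had at most 2.63 FPKM with haloperidol and at most 1.11 FPKM with DMSO, and its groups overlapped. It took 1.24% of the joint sum with haloperidol and 0.741% with DMSO. The copy of Snrpg, Gm8186, had 43.1, 32.6 and 47.7 FPKM with haloperidol and 35.7, 32.2 and 29.9 FPKM with DMSO, which overlapped. Snrpf had a listed copy at 3.91 ± 0.998 FPKM with haloperidol and 3.45 ± 1.14 FPKM with DMSO. Of the other members that passed, Srsf10 had a listed copy at 0.538 FPKM on average with haloperidol and 0.242 FPKM with DMSO, the copy of Snrpe had no row, and no copy was found for Hnrnpd, Hnrnpdl, Hnrnpl, Hnrnph1, Snrpd3 and Snrpa1.

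**Figure D4:**
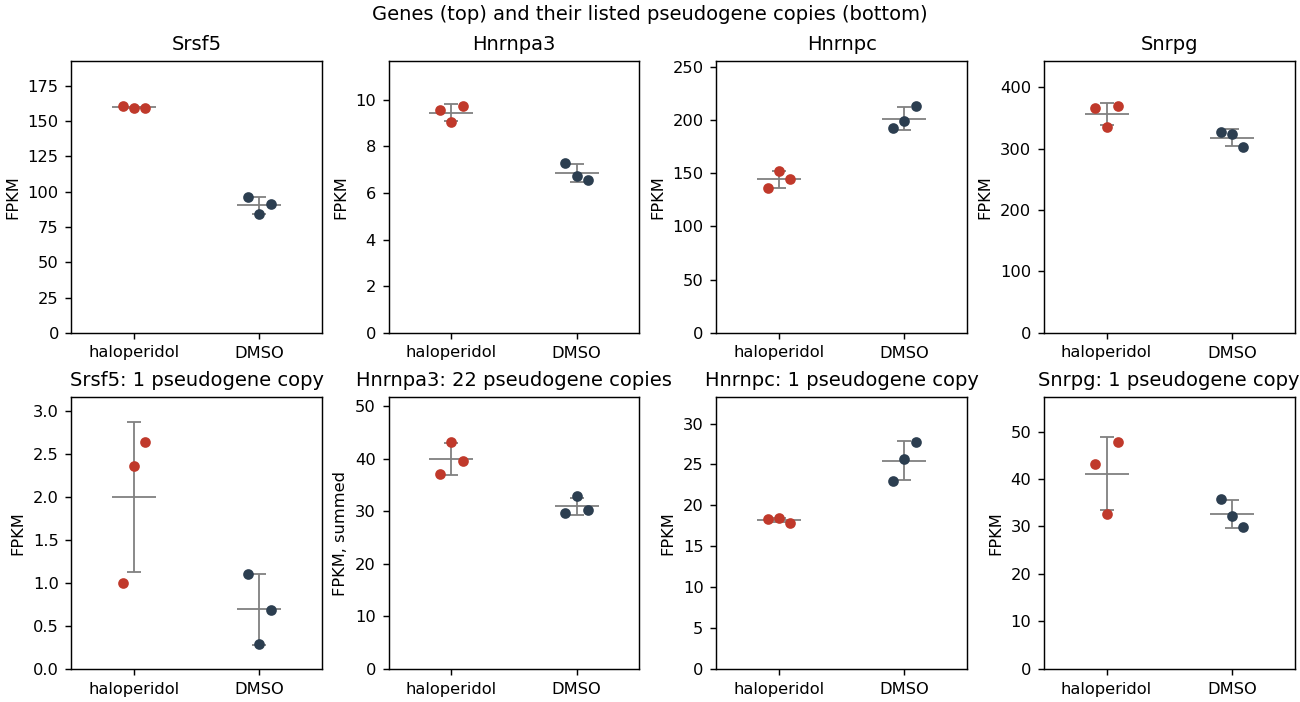
FPKM of Srsf5, Hnrnpa3, Hnrnpc and Snrpg (top) and the FPKM of their listed pseudogene copies (bottom; summed over 22 copies for Hnrnpa3), 1 point per library, haloperidol left and DMSO right, with mean and SD (n = 3 each). Copies of Hnrnpa3 summed to 37.1 to 43.1 FPKM with haloperidol and 29.7 to 32.8 FPKM with DMSO, above the gene itself in each library, and the copy of Hnrnpc was lower with haloperidol, as was the gene.

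The library kit keeps no strand, so reads from overlapping genes on opposite strands cannot be told apart. Of the members that passed, Snrpf shared 567 exon bases with the protein-coding gene Ccdc38 and 168 with 4933408J17Rik, Snrpd3 shared 232 with the protein-coding gene Gucd1, Hnrnpd shared 385 with the antisense gene Gm17092 and Hnrnpl shared 32 with the antisense gene Gm44702, which was not analysed here. On the same strand, Hnrnpa3 shared 57 with Gm24574, listed at 0, and Snrpa1 shared 148 with Gm45213, not analysed here. Ccdc38 was at 0.0441 FPKM on average with haloperidol and 0.0698 FPKM with DMSO, Gucd1 at 3.91 and 3.15 FPKM, Gm17092 at 0.216 and 0.214 FPKM and 4933408J17Rik at 0.324 and 0.405 FPKM, far below the members. Transcript annotation also differed by class. At least 1 transcript marked for nonsense-mediated decay was annotated for 9 of 11 SR genes (81.8%), 10 of 20 hnRNP genes (50.0%) and 4 of 12 snRNP genes (33.3%), against 30.2% of 9868 tested protein-coding genes. The table gives 1 value per gene, so productive and decaying transcripts were not separated.

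Other genes of the splicing machinery were examined in 10 lists. Of 185 tested, 17 rose and 20 fell (20.0% in all), where 24.5% of all genes passed, and their median log2 fold change was 0.03. The Sm-related Lsm proteins, which ring the U6 snRNA or act in mRNA decay, passed in both directions. Of 10 tested, 1 rose and 2 fell in limma. Their median log2 fold change was 0.15, with 7 values above 0. The groups did not overlap in 6 genes higher with haloperidol and 3 lower, where the shares over all genes were 21.0% and 22.1%. At an unadjusted p under 0.05, 7 were higher and 3 lower, where 18.5% of all tested genes were higher and 19.1% lower. Limma voom on recovered reads called 3 higher and 2 lower, and over all tested genes it called 13.9% higher and 15.3% lower. Lsm3 was at 91.2 ± 5.71 FPKM with haloperidol and 115 ± 4.76 FPKM with DMSO (limma adjusted p = 0.00528), and Lsm10, part of the U7 snRNP of histone mRNA processing, at 20.2 ± 1.46 and 26.8 ± 1.83 FPKM (0.00666). Lsm5 was the one that rose, with 58.3 ± 7.58 FPKM under haloperidol and 44.2 ± 1.66 FPKM under DMSO (0.0146), and its call ended without DMSO replicate 1 (0.0518).

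Among 24 tested proteins of the U1, U5 and U4/U6 particles, 2 rose (8.33%) and 4 fell (16.7%). Of all tested genes, 11.5% rose and 13.0% fell. Txnl4a, a small U5 protein, fell to 28.2 ± 3.12 FPKM with haloperidol, against 37.9 ± 2.60 FPKM with DMSO. The tri-snRNP proteins Prpf6 and Prpf3 fell with log2 fold changes of -0.28 and -0.39 (limma adjusted p = 0.0106 and 0.0136). These are named for the smallest p of the list. The 2 genes of these particles that rose had log2 fold changes of 0.23 and 0.35 (limma adjusted p = 0.0263 and 0.0418). With 1 library left out at a time, 0 to 2 genes of the list were higher. Of 15 tested genes of the SF3 and U2AF proteins, which recognise the branch point and the 3′ splice site, Sf3b1 alone passed, at 65.5 ± 3.92 FPKM with haloperidol and 77.4 ± 2.41 FPKM with DMSO (limma adjusted p = 0.0182). Its call ended without DMSO replicate 1 (0.0597) or DMSO replicate 2 (0.0591). Of 26 tested proteins of the Prp19 complex and the catalytic steps, 3 rose (11.5%) and 1 fell (3.85%). The one that fell was Isy1, at 92.0 ± 2.86 FPKM with haloperidol and 115 ± 3.55 FPKM with DMSO (limma adjusted p = 0.00264), while Rbm22 and Ddx46 rose by 0.26 and 0.23 on the log2 scale. The call for Rbm22 ended without haloperidol replicate 2 (adjusted p = 0.0792), DMSO replicate 2 (0.0635) or DMSO replicate 3 (0.0717), and that for Ddx46 without any 1 of haloperidol replicates 1 (0.0795), 2 (0.0641) and 3 (0.0866) or DMSO replicates 2 (0.0722) and 3 (0.0946).

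No minor spliceosome gene passed in limma among 11 tested, while 2 were higher and 0 lower at an unadjusted p under 0.05, and 1 was higher in limma voom on recovered reads. Over all tested genes 18.5% were higher and 19.1% lower at that p. Limma called 11.5% of them higher and 13.0% lower, and limma voom called 13.9% higher and 15.3% lower. Of 16 tested genes of snRNP assembly, Smn1, the survival motor neuron gene, rose (log2 fold change 0.27, limma adjusted p = 0.0421) and Gemin7 fell (-0.23, 0.0392). The call for Smn1 ended without haloperidol replicates 1 (0.101), 2 (0.0669) or 3 (0.110) or DMSO replicates 1 (0.101) or 2 (0.136), and that for Gemin7 without haloperidol replicates 1 (0.117) or 2 (0.103) or DMSO replicates 1 (0.0562), 2 (0.0688) or 3 (0.113). SR protein kinases phosphorylate the tails of SR proteins. Of 8 tested, Clk3 alone passed, at 26.0 ± 0.612 FPKM with haloperidol and 31.5 ± 2.47 FPKM with DMSO (limma adjusted p = 0.0207), a call that ended without haloperidol replicate 2 (0.0647), DMSO replicate 2 (0.0691) or DMSO replicate 3 (0.0641).

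Of 24 tested SR-related and coactivator genes, 2 rose (8.33%) and 4 fell (16.7%), where 11.5% of all tested genes rose and 13.0% fell. Bclaf1 rose to 38.5 ± 0.261 FPKM with haloperidol, against 33.5 ± 0.635 FPKM with DMSO (limma adjusted p = 0.0199), and Tra2a and Acin1 fell with log2 fold changes of -0.26 and -0.31 (0.0221 and 0.0222). These 3 calls each ended without any 1 of 4 libraries, haloperidol replicate 2 among them, with adjusted p of 0.0517 for Bclaf1, 0.0714 for Tra2a and 0.0607 for Acin1 when that library was left out. For Bclaf1 the others were haloperidol replicate 1 (0.0591) and DMSO replicates 2 (0.0570) and 3 (0.0583), for Tra2a haloperidol replicate 3 (0.0561) and DMSO replicates 1 (0.0693) and 3 (0.0580), and for Acin1 haloperidol replicate 3 (0.0612) and DMSO replicates 1 (0.0718) and 2 (0.0777).

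The largest changes outside the 3 families were among 36 tested regulators of alternative splicing, of which 5 rose (13.9%) and 6 fell (16.7%). Of all tested genes, 11.5% rose and 13.0% fell. Rbm5, a regulator of apoptosis genes' splicing, fell to 9.95 ± 0.201 FPKM with haloperidol, against 16.4 ± 0.996 FPKM with DMSO (log2 fold change -0.66, SE 0.07, limma adjusted p = 4.05e-04). Fubp1 had 18.1 ± 1.63 FPKM with haloperidol and 26.7 ± 0.543 FPKM with DMSO (log2 fold change -0.54, SE 0.07, limma adjusted p = 0.00128). Ewsr1, of the FET family of RNA-binding proteins, rose to 159 ± 3.25 FPKM with haloperidol, against 134 ± 4.14 FPKM with DMSO (log2 fold change 0.25, limma adjusted p = 0.00617). Of 15 tested genes of the exon junction complex and nonsense-mediated decay, 3 rose (20.0%) and 0 fell in limma, as in limma voom. Over all tested genes limma called 11.5% higher and 13.0% lower, and limma voom called 13.9% higher and 15.3% lower. At an unadjusted p under 0.05, 4 were higher and 0 lower, where 18.5% of all tested genes were higher and 19.1% lower. Smg9 stood at 10.4 ± 0.841 FPKM with haloperidol and 7.28 ± 0.620 FPKM with DMSO (limma adjusted p = 0.00622), while Upf3b and Smg5 had adjusted p of 0.0365 and 0.0466. The call for Upf3b ended without any 1 of haloperidol replicates 1 (0.101) and 2 (0.0572) and DMSO replicates 1 (0.0639), 2 (0.0789) and 3 (0.111), and that for Smg5 without haloperidol replicates 2 (0.141) or 3 (0.117) or DMSO replicates 1 (0.0645), 2 (0.0883) or 3 (0.136).

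**Figure D5:**
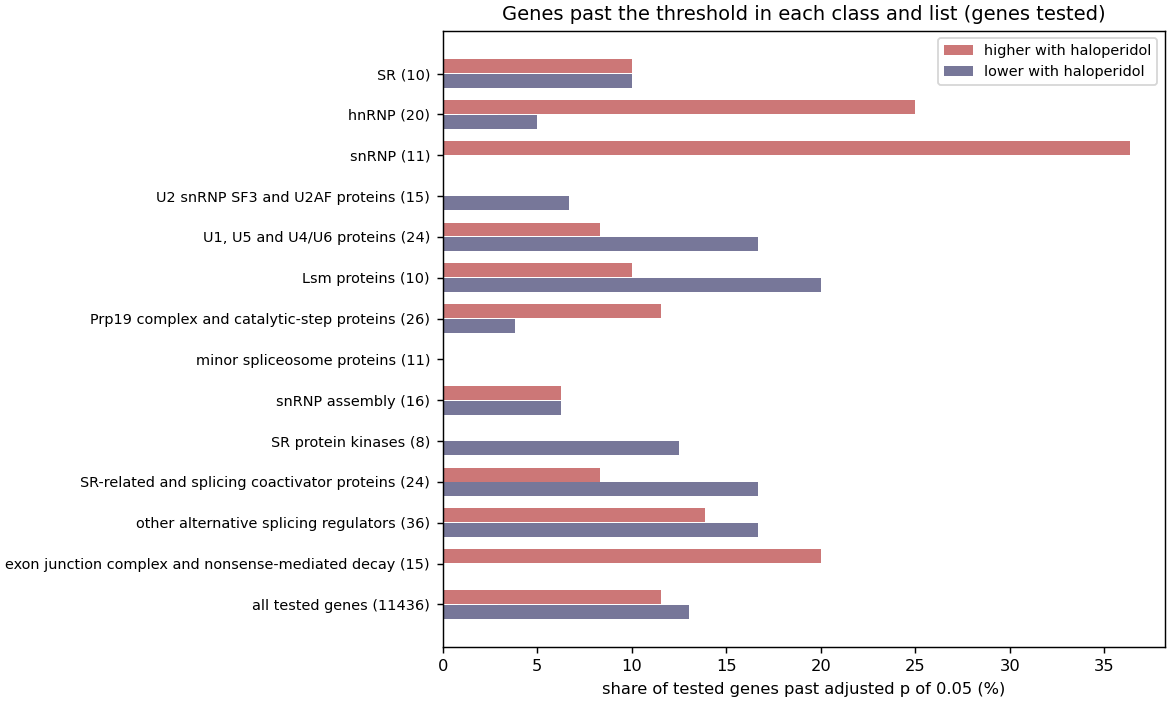
Share of tested genes past an adjusted p of 0.05 in each class, in the 10 other lists and among all tested genes, with bars for genes higher (red) and lower (blue) with haloperidol and the number tested in brackets. The snRNP class has 36.4% higher and 0 lower, and all tested genes have 11.5% higher and 13.0% lower.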

How the data were processed

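The authors deposited 1 table of FPKM values per gene, with a column for each library and 0 others that hold samples. Per the submitters' processing notes, the tools named are TopHat2 2.1.1 with build mm10, HTSeq 0.6.1, bcl2fastq 2.19.1.403 and DESeq2 1.18.1. Neither annotation release nor counting options are stated there. Per the labels' protocols, cDNA came from a SMART-Seq kit and libraries from a Nextera kit, without molecular identifiers.

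Here, FPKM were tested with limma 3.58.1 in R 4.3.3 on log2(FPKM + 1), with a trend in the prior variance, for 11436 genes at a mean of at least 1 FPKM. Fold changes are on that scale and understate those of low genes. FPKM steps gave whole reads for 100.0% of genes above 0, within 0.001 reads. Their sums are given as depth and as a minimum, since a factor common to all libraries cannot be seen. Counting error alone allows up to 0.336 to 0.353 RPM for a gene with 0 reads (3 counts). Chi-square per degree of freedom was 2.78 to 4.46 within groups and 12.03 to 16.94 between them, so no libraries agreed within sampling noise. Fits were also run on simulated reads drawn with the same setting of spread for every gene. The data need not share that spread, and no result here rests on that run.

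Named genes are, per class, up to 5 that rose and 5 that fell with the smallest p and the 3 most abundant, and up to 3 per other list. Members, lists and rules were chosen with earlier results of these data known. Positions are from GENCODE vM21 (GRCm38), and copies were found with blastn. One marker gene is not reported here.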

Additional observations from a re-analysis of the deposited data

How the results depend on the processing

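Under 18 other settings, Srsf5, Srsf10, Hnrnpa3, Hnrnpl, Hnrnpc and Snrpf kept their call in each, 6 of the 12 members called, and no member's call changed direction. Of the 29 members not called, 6 passed under at least 1 setting. With no filter on low values 848 genes of all tested were higher, with 6 members higher in all, 2 of them hnRNP genes, and 9 genes of the other lists. With no trend in the prior variance 6 members were higher, 2 of them hnRNP genes, and 11 genes of the other lists, which was also 11 with rescaling to a common sum. The SR genes that were lower numbered 2 at a mean of at least 5 FPKM and with quantile normalization. On reads recovered from the FPKM, an alternative chosen after seeing the data, limma voom put 3 SR genes and 4 members lower and 31 genes of the other lists higher. Leaving out 1 library at a time gave 815 to 957 genes higher over all genes, 6 to 8 members higher, 3 to 4 hnRNP genes higher, 2 to 4 snRNP genes higher, 1 to 2 SR genes lower and 6 to 14 genes of the other lists higher. The cause of these shifts was not tested.

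Labels number the replicates alike in both groups. Deviations of same-numbered libraries correlated at 0.009, 0.055 and 0.020, and the labels do not say whether a number marks a shared mouse, sort or day, so the numbers were not used to pair libraries. With the number as a replicate block, 3 hnRNP genes were higher in place of 5, since the calls for Hnrnpdl (adjusted p = 0.0655) and Hnrnph1 (0.0816) ended. Median log2 fold changes over all genes lay between -0.016 with rescaling to a common sum and 0.026 with upper quartile scaling. Depth limits Srsf12 and Snrpn, with at most 17 reads in a library.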
